A study of Homo sapiens with 6 samples.

Results

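The genes described here are 9 that encode secreted antimicrobial and acute-phase proteins of epithelia, and they were found by their symbols among the 50868 genes with values: LCN2, S100A7, S100A8, S100A9, SLPI, PI3, CAMP, DEFB1 and CD14. They were selected on the readout, because several of them stood far apart between the 5637 libraries, so their differences in these libraries are given as a description with no test. NGS was performed on UM-UC-3 and 5637, established human bladder cancer cell lines. Each line carried a lentiviral control hairpin (sh-NC), sh-LNMAT1#1 or sh-LNMAT1#2, the last pair being short hairpin RNAs against LNMAT1, a long noncoding RNA whose gene is LINC01296. All cells had been selected with puromycin for 2 weeks, and each of the 6 combinations was sequenced as 1 library of a stable line, so no group had a replicate. Levels are in FPKM, fragments per kilobase of exon scaled to the mapped fragments of a library, which is a level per length. Values of UM-UC-3 are given in the order control, sh-LNMAT1#1, sh-LNMAT1#2, and those of the 5637 sh-LNMAT1 libraries in the order of the hairpins. Differences are in log2(FPKM + 0.5), which understates the change of genes at low levels.

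Epithelia exposed to microbes secrete small proteins that bind metals, break membranes or block proteases. Lipocalin-2 (LCN2) withholds iron by binding bacterial siderophores, and calprotectin, the heterodimer of S100A8 and S100A9, withholds manganese and zinc. Both are abundant in neutrophils and are also made by keratinocytes and urothelial cells under inflammatory stimulation, through NF-kB and C/EBP factors downstream of cytokines such as IL-17 and IL-1.

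S100A9, S100A8 and S100A7 lie in the epidermal differentiation complex of chromosome 1 and LCN2 lies on chromosome 9, and the starts of these genes are shown because their levels stood apart together. The 250 bases before the transcript start are given 5′ to 3′ from RefSeq (GRCh38.p14): S100A9 at chr1:153357604-153357853 on the plus strand, S100A8 at chr1:153391074-153391323 and S100A7 at chr1:153460652-153460901 on the minus strand, and LCN2 at chr9:128149203-128149452 on the plus strand. Capitals mark TATAAA in the 3 S100 genes. In LCN2 they mark, in order, a match to the NF-kB consensus, a C/EBP motif (TTNNGCAA) and an AP-1 motif (TGANTCA), all searched on both strands.
S100A9: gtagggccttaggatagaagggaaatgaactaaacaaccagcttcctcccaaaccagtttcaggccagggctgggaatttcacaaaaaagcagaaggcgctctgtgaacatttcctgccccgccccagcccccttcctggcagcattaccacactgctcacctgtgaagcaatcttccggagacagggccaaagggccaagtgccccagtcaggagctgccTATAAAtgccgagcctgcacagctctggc
S100A8: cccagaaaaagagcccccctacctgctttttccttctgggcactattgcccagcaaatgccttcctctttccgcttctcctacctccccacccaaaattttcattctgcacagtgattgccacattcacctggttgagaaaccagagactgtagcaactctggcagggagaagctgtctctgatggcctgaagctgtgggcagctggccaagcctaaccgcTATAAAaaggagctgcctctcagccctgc
S100A7: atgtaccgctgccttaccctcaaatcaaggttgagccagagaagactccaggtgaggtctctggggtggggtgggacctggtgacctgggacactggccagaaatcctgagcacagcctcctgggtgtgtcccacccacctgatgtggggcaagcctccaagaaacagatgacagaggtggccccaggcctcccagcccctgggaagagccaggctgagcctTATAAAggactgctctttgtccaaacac
LCN2: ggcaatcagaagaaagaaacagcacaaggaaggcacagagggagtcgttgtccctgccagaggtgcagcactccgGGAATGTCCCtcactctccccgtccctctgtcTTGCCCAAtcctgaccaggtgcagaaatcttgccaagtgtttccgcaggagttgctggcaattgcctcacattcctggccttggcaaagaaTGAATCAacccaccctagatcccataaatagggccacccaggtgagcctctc

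TATAAA began 29 bases before the start in S100A9 and S100A8, for S100A8 in 1 of 3 RefSeq windows, and 28 bases before it in S100A7. Of 35116 RefSeq windows that run from 250 bases before to 50 after a start, 11.5% held this motif, so it is a common one. In LCN2 the NF-kB match lay at -175 to -166, the C/EBP motif at -143 to -136, both on the minus strand, and the palindromic AP-1 motif at -52 to -46. These motifs occurred in 11.3%, 10.5% and 7.71% of all windows. A match to letters is not a bound site. The windows of the 3 S100 genes held no NF-kB, C/EBP or AP-1 match. The window of CD14 held 1 AP-1 motif, at -223 to -217, and that of CAMP held none of the 4 motifs. No entry matched SLPI, PI3 and DEFB1.

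The libraries held 19375000 to 24707000 fragments as recovered from the values of single-exon genes. UM-UC-3 held LINC01296 at 14.2, 6.20 and 6.70 FPKM, so it was lower there with both hairpins. The library labelled 5637 sh-NC had 11.7 FPKM, against 4.70 and 2.14 FPKM in the 5637 sh-LNMAT1 libraries. That 11.7 FPKM lies within the UM-UC-3 values, so LINC01296 does not place the library in 5637. Other genes of the library labelled 5637 sh-NC went against its label. Over 12717 genes its Pearson r, across genes, was 0.922 to 0.985 with the 3 UM-UC-3 libraries and 0.617 and 0.622 with the 5637 sh-LNMAT1 libraries. E-cadherin (CDH1), the adhesion protein of epithelia, was at most 0.00931 FPKM in that library and in the UM-UC-3 libraries, against 19.2 and 14.1 FPKM in the 5637 sh-LNMAT1 libraries. The intermediate filament vimentin (VIM) was 103 to 332 FPKM in the former 4 and 3.85 and 4.14 FPKM in the latter. A difference between the 5637 sh-LNMAT1 libraries and the library labelled 5637 sh-NC therefore cannot be told apart from a difference between lines. The count of genes in 5637 is given also without that library, and the comparison of the lines at the same hairpin does not use it.

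The chromosome 1 genes are taken first. S100A9 (chr1:153357854-153361027 in GRCh38, plus strand, 3 exons), the calprotectin subunit with the longer tail, was 0.631, 0.311 and 0.831 FPKM in UM-UC-3, 1.00 FPKM for the library labelled 5637 sh-NC, and 3032 and 2819 FPKM in 5637 sh-LNMAT1#1 and sh-LNMAT1#2. The first 4 libraries held 9, 4, 11 and 13 fragments and the last 2 held 36394 and 31514. S100A9 was the gene of rank 3 and 4 by FPKM in the 5637 sh-LNMAT1 libraries and made up 1.54% and 1.41% of all FPKM there.

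S100A8 (chr1:153390032-153391188, minus strand), its partner subunit, was listed at 0 in all 3 UM-UC-3 libraries, at 0.0328 FPKM for the library labelled 5637 sh-NC, and at 27.1 and 39.2 FPKM in 5637 sh-LNMAT1#1 and sh-LNMAT1#2. The 5637 sh-LNMAT1 libraries again stood above the other 4, in a gene chosen on the readout. The proteins are partners in calprotectin, and the S100A9 level was 112 and 71.8 times the S100A8 level with the 2 hairpins.

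S100A7 (psoriasin, chr1:153457744-153460701, minus strand), a keratinocyte protein active against Escherichia coli, was also listed at 0 in UM-UC-3, at 0.0831 FPKM or 1 fragment in the library labelled 5637 sh-NC, and at 23.8 and 54.7 FPKM in the 5637 sh-LNMAT1 libraries, or 265 and 568 fragments. Its level was 0.877 times that of S100A8 with sh-LNMAT1#1 and 1.39 times with sh-LNMAT1#2. S100A7 has a close copy, S100A7A, at 0.609 and 1.15 FPKM in the same 2 libraries, and reads can be split between the copies, so both values are uncertain.

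LCN2 (chr9:128149071-128153455, plus strand) was 0.117, 0.202 and 0.126 FPKM in UM-UC-3, 0.129 FPKM for the library labelled 5637 sh-NC, and 582.7 and 616.5 FPKM in 5637 sh-LNMAT1#1 and sh-LNMAT1#2. The 4 low values stand for 1.23 to 7.18 fragments, depending on the transcript length used, so the gene was near the detection limit outside the 5637 sh-LNMAT1 libraries. LCN2 held rank 26 and 23 in the 5637 sh-LNMAT1 libraries, and the S100A9 level was 5.20 and 4.57 times its own.

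**Figure D1:**
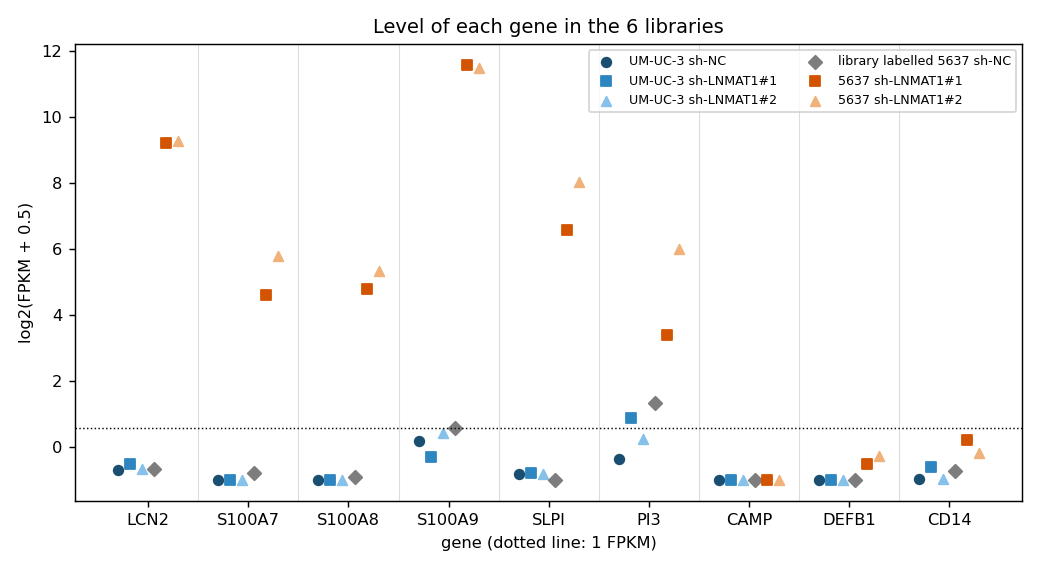
Level of the 9 genes, as log2(FPKM + 0.5), in each of the 6 libraries, 1 point a library, with a dotted line at 1 FPKM. S100A9 reaches 3032 FPKM in 5637 with sh-LNMAT1#1. DEFB1, CD14 and CAMP stay under 1 FPKM in all 6 libraries, and CAMP is listed at 0 in each.

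The protease inhibitors lie together on chromosome 20. SLPI (chr20:45252239-45254564, minus strand), the secretory leukocyte inhibitor of neutrophil elastase, was 0.0679, 0.0753 and 0.0731 FPKM in the UM-UC-3 libraries, 1 fragment each, 0 in the library labelled 5637 sh-NC, and 94.1 and 259 FPKM in the 5637 sh-LNMAT1 libraries, with 1167 and 2989 fragments. SLPI thus rested on single fragments in the low libraries.

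PI3 (elafin, chr20:45174876-45176544, plus strand), an inhibitor of elastase and proteinase 3 that is crosslinked into the extracellular matrix, was 0.281, 1.32 and 0.680 FPKM in UM-UC-3, or 4, 17 and 9 fragments. It was 2.01 FPKM, 26 fragments, in the library labelled 5637 sh-NC, and 10.1 and 63.6 FPKM, 121 and 711 fragments, in the 5637 sh-LNMAT1 libraries. PI3 had the narrowest gap between the groups of libraries among the 6 genes that reached 1 FPKM, all of them chosen on the readout. The SLPI level was 9.34 and 4.07 times that of PI3 with the 2 hairpins in 5637.

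The other 3 genes stayed low. DEFB1 (chr8:6870575-6878022, minus strand), the constitutive epithelial beta-defensin, was 0 in 4 libraries and 0.201 and 0.324 FPKM in 5637 sh-LNMAT1#1 and sh-LNMAT1#2, which are 2 and 3 fragments and give no fold. CAMP (chr3:48223347-48225491, plus strand), the cathelicidin precursor of LL-37, was listed at 0 in all 6 libraries, which allows up to 0.163 to 0.208 FPKM, the value of 3 fragments. CD14 (chr5:140631728-140633701, minus strand), the co-receptor for lipopolysaccharide (LPS), was 0.0105, 0.151 and 0.0113 FPKM in the UM-UC-3 libraries, 0.104 FPKM for the library labelled 5637 sh-NC, and 0.661 and 0.388 FPKM in the 5637 sh-LNMAT1 libraries. None of these 3 genes reached 1 FPKM in any library.

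In UM-UC-3, the question was whether the genes moved with either hairpin against sh-NC. Both hairpins are compared with the same sh-NC library. A gene was counted where it reached 1 FPKM in a library of the comparison and differed at least 2-fold in one direction with both hairpins. PI3 was the only one of the 9 to reach 1 FPKM, and 0 of 9 were counted, beside 1.07% of 13090 genes counted as higher and 0.443% as lower. PI3 was higher by 1.22 with sh-LNMAT1#1 and by 0.60 with sh-LNMAT1#2 on the log2(FPKM + 0.5) scale. As ratios of FPKM these are 4.71 (95% interval for counting error 1.54 to 19.3) and 2.42 (0.676 to 10.8). S100A9 differed by -0.48 and 0.23 on the same log2 scale, opposite in sign, on 4 to 11 fragments. The median log2 difference of all 9 genes was 0.00 with each hairpin. This says little, because S100A7, S100A8, CAMP and DEFB1 were listed at 0 in every UM-UC-3 library. The median over the genes kept, of which PI3 was the only one of the 9, was 0.01 and 0.02.

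In 5637 against the library labelled 5637 sh-NC, 6 of the 9 genes were kept and all 6 were at least 2-fold higher with both hairpins: S100A9, S100A8, S100A7, LCN2, SLPI and PI3. Among the 14385 genes kept, 18.4% were counted as higher and 14.4% as lower. Since these genes were chosen on this contrast, nothing is read from their count. The log2 differences with sh-LNMAT1#1 and sh-LNMAT1#2 were 10.98 and 10.87 for S100A9, 9.86 and 9.94 for LCN2, and 7.56 and 9.02 for SLPI. They were 5.70 and 6.22 for S100A8, 5.38 and 6.57 for S100A7, and 2.08 and 4.68 for PI3. The median over all 9 genes was 5.38 and 6.22. Over the 6 of them kept it was 6.63 and 7.79, beside 0.05 and 0.04 over the 14385 genes kept. With UM-UC-3 sh-NC in place of the doubted control, an alternative chosen after seeing the data, the count was again 6. Counting error was small beside these gaps, the FPKM ratio for S100A9 being 3020 (1766 to 5671) and 2807 (1641 to 5273).

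**Figure D2:**
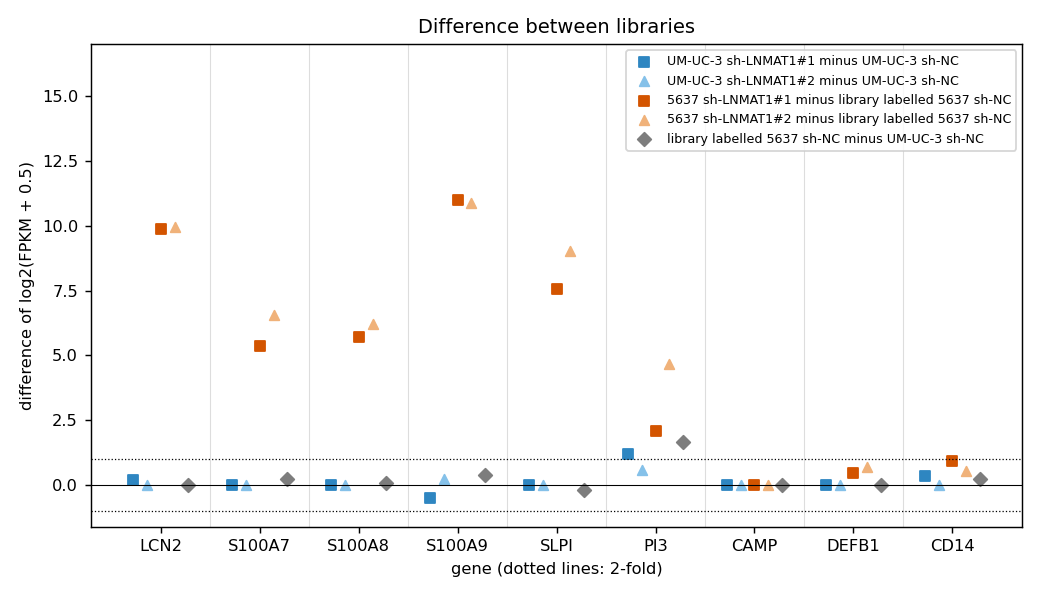
Difference in log2(FPKM + 0.5) for each gene between a hairpin library and the sh-NC library of its label, and between both sh-NC libraries, with dotted lines at 2-fold. In UM-UC-3 only PI3 with sh-LNMAT1#1 passes 2-fold, at 1.22, whereas 6 genes lie between 2.08 and 10.98 with both hairpins in 5637. Between the sh-NC libraries PI3 alone passes 2-fold, at 1.68.

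The lines were then compared at the same construct, which leaves the sh-NC libraries out of the hairpin pairs. In the sh-LNMAT1 pairs, 6 of 9 genes were kept, and 6 were at least 2-fold higher in 5637 with both hairpins. The share over 14853 genes was 14.3%. All of the 6 but PI3 reached 1 FPKM here only in the 5637 libraries. Since the genes were chosen on the readout, nothing is read from this count either. The FPKM ratio of 5637 to UM-UC-3 with sh-LNMAT1#1 and sh-LNMAT1#2 was 9743 (95% counting interval 3805 to 35758) and 3393 (1896 to 6798) for S100A9, and that for LCN2 was 2890 (781 to 25534) and 4899 (1011 to 106903). It was 7.62 (4.57 to 13.5) and 93.6 (49.0 to 205.5) for PI3. For SLPI, on 1 fragment in either UM-UC-3 library, it was 1249 (224 to 49335) and 3539 (635 to 139664). S100A8 was at least 99.7-fold and 149-fold higher in 5637, and S100A7 at least 78.0-fold and 185-fold, set against 3 fragments per library at the length of the shortest transcript.

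In the sh-NC pair, by contrast, the library labelled 5637 sh-NC held 1 of the 9 genes at a level at least 2-fold above UM-UC-3 sh-NC, beside 5.73% of 12694 genes. That gene was PI3, at a ratio of 7.16 (2.48 to 28.2) on 26 and 4 fragments. S100A9 differed by a ratio of 1.59 (0.629 to 4.22), whose counting interval includes 1. LCN2 and SLPI differed by 0.03 and -0.18 on the log2 scale, with both libraries at a few fragments at most.

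The 9 genes varied among themselves between the hairpins in 5637. With sh-LNMAT1#2 against sh-LNMAT1#1, the FPKM ratio was 6.31 (95% counting interval 5.20 to 7.72) for PI3, 2.75 (2.57 to 2.95) for SLPI and 2.30 (1.96 to 2.72) for S100A7. It was 1.45 (1.24 to 1.70) for S100A8, 1.06 (1.02 to 1.10) for LCN2 and 0.930 (0.916 to 0.944) for S100A9. LCN2 and S100A9 thus differed least, and PI3 and SLPI differed most. At least 2-fold higher were 3 of the 6 genes kept and lower were 0, beside 1.47% and 1.08% of 12983 genes. These intervals cover counting error only, and with 1 library a hairpin the spread between cultures is not known. S100A9, LCN2 and SLPI kept this order of FPKM with both hairpins. Below them the order was S100A8, S100A7 and PI3 with sh-LNMAT1#1 and the reverse with sh-LNMAT1#2, and S100A8 and S100A7 differed there by less than the 2.30-fold by which S100A7 itself varied between hairpins.

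**Figure D3:**
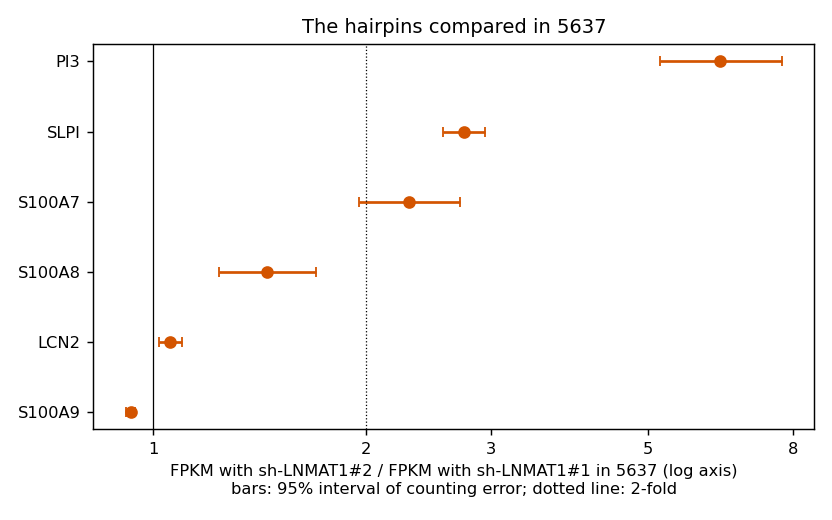
Ratio of FPKM in 5637 with sh-LNMAT1#2 to that with sh-LNMAT1#1 for the 6 genes that reached 1 FPKM, on a log axis, with bars for the 95% interval of counting error. PI3 lies at 6.31, SLPI at 2.75 and S100A7 at 2.30, and LCN2 and S100A9 lie at 1.06 and 0.930.

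Because calprotectin, LCN2 and CD14 are best known from neutrophils and macrophages, 15 myeloid markers were read in the same libraries. In every library 1 of the 15 was at 1 FPKM or more. Their summed level was 14.7 to 31.8 FPKM in the UM-UC-3 libraries and the library labelled 5637 sh-NC, led by the lysosomal protein CD68, and 34.8 and 50.2 FPKM in the 5637 sh-LNMAT1 libraries, led by LAPTM5 at 33.2 and 48.6 FPKM. The leukocyte antigen CD45 (PTPRC) was 0 in 5 libraries and 0.0108 FPKM in 5637 sh-LNMAT1#2, the myeloid factor SPI1 was 0 and 0.0133 FPKM and the integrin ITGAM 0 and 0.0145 FPKM in the 5637 sh-LNMAT1 libraries, and CSF3R was 0 in all 6. Of 13 epithelial markers, 12 were at 1 FPKM or more in the 5637 sh-LNMAT1 libraries, with sums of 953 and 1263 FPKM, against 3 and sums of 37.4 to 77.3 FPKM in the other 4. The sum of 8 mesenchymal markers was 165 to 400.3 FPKM in the latter 4 libraries, led by VIM, and 126 and 121 FPKM in the 5637 sh-LNMAT1 libraries, where fibronectin (FN1) made up 109.6 and 102.4 FPKM. FN1 was 0.816 to 2.27 FPKM in the latter 4, so the members of this list stood in opposite directions. The part of these marker lists in the levels of the 9 genes was not tested. In a bulk library, fewer cells of a kind and less RNA per cell cannot be told apart.

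The genes around S100A9 and SLPI were read next, and both of these were chosen on the readout. Within 500 kb of S100A9, 25 of 57 genes reached 1 FPKM in a library, 22 of them outside the 9, and 14 of the 22 were at least 2-fold higher by mean log2(FPKM + 0.5) in the 5637 sh-LNMAT1 libraries than in the UM-UC-3 libraries, with 0 lower, beside 17.6% higher and 14.9% lower of the 15105 genes that reached 1 FPKM. The 22 had a median log2 difference of 1.29. Several of the higher genes, such as IVL, SPRR2A and S100A14, reached 1 FPKM only in the 5637 sh-LNMAT1 libraries. With a window centred on a chosen gene, the count is a description and nothing is read from it. S100A2, a calcium-binding protein of basal epithelia, was 0.822 to 1.84 FPKM in the UM-UC-3 libraries, 0.998 FPKM for the library labelled 5637 sh-NC, and 62.3 and 114 FPKM in the 5637 sh-LNMAT1 libraries. The cornified-envelope gene SPRR2A was 0 in the former 4 libraries and 3.25 and 46.1 FPKM in the latter. S100A16 lay 249032 bases from S100A9 and differed by 0.05 on the log2 scale, at 57.1 to 130 FPKM in UM-UC-3 and 68.1 and 91.3 FPKM in the 5637 sh-LNMAT1 libraries. Elevated genes in this complex thus lay among others that did not differ 2-fold.

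Around SLPI, 13 of 47 genes reached 1 FPKM, and of the 11 outside the 9 genes 2 were higher and 1 lower at 2-fold, beside the same 17.6% and 14.9%, with a median log2 difference of -0.35. WFDC2 (HE4), which shares the whey acidic protein fold with SLPI and PI3, was at most 0.0599 FPKM in the UM-UC-3 libraries and the library labelled 5637 sh-NC, and 49.3 and 57.0 FPKM in the 5637 sh-LNMAT1 libraries. The syndecan gene SDC4, the nearest gene after SLPI at 1 FPKM or more, was 83.2, 166 and 150.1 FPKM in UM-UC-3, 186 FPKM for the library labelled 5637 sh-NC, and 42.0 and 71.7 FPKM in the 5637 sh-LNMAT1 libraries, opposite to SLPI. These folds are descriptions, with no test.

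**Figure D4:**
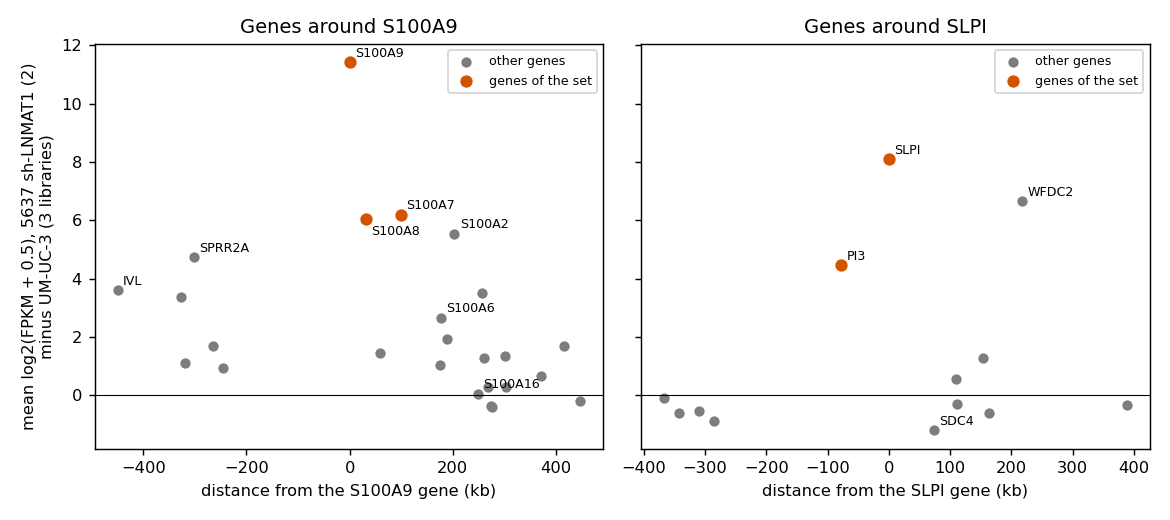
Difference in mean log2(FPKM + 0.5) between the 5637 sh-LNMAT1 libraries (2) and the UM-UC-3 libraries (3) for genes at 1 FPKM or more, against distance in kb from S100A9 or SLPI. Near S100A9, 14 of 22 other genes are at least 2-fold higher and 0 lower, and near SLPI 2 of 11 are higher and 1 lower. Both windows are centred on genes chosen on the readout.

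The nearest genes at 1 FPKM or more were also read beside LCN2, CD14, CAMP, DEFB1 and PI3. C9orf16, 6805 bases after LCN2, was 4.10 to 6.03 FPKM in the UM-UC-3 libraries, 5.88 FPKM for the library labelled 5637 sh-NC, and 20.03 and 18.65 FPKM in the 5637 sh-LNMAT1 libraries. PTGES2, a prostaglandin E synthase on the other side of LCN2, was 3.33 to 6.22, 6.81, and 12.7 and 8.20 FPKM in the same order. NDUFA2, a complex I subunit 5039 bases after CD14, was 14.2 to 14.8, 14.0, and 5.80 and 6.03 FPKM. APBB3, on the other side of CD14, was 0.902 to 1.81, 1.10, and 0.407 and 0.445 FPKM. Beside CAMP, the cell cycle phosphatase CDC25A was 4.41 to 5.64, 3.31, and 7.54 and 9.64 FPKM, and ZNF589 was 0.706 to 1.92, 0.828, and 0.772 and 0.559 FPKM. Beside DEFB1, the acyltransferase AGPAT5 was 11.0 to 12.6, 11.4, and 7.39 and 6.12 FPKM, and beside PI3 the kinase STK4 was 14.75 to 17.99, 15.43, and 9.47 and 7.31 FPKM. Since LCN2 was chosen on the readout, its gap is not weighed against those of these neighbours.

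The likeness of other genes was read as Pearson r of log2(FPKM + 0.5) over the 6 libraries, among 5099 genes at 10 FPKM or more in a library. The points form 2 clusters, the 5637 sh-LNMAT1 libraries and the other 4, so a high r says little more than that a gene is split in that way. Most like LCN2 were annexin ANXA3 (0.99999), P-cadherin CDH3 (0.99997), the epithelial sorting adaptor AP1M2 (0.99996), HOXD10 (0.99994) and the adhesion molecule EPCAM (0.99994), and 291 genes had r of 0.99 or more. Most like S100A9 were the fatty acid carrier FABP4 (0.99897), DUSP23 (0.99895), the protease CTSH (0.99892), THUMPD3 (0.99889) and the antimicrobial ribonuclease RNASE7 (0.99879), out of 262 genes at that limit. EPCAM was at most 0.0210 FPKM in the 4 low libraries and 33.8 and 35.6 FPKM in the 5637 sh-LNMAT1 libraries.

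The rest of the pathway was read from 6 lists of other genes, in a limma fit of the sh-LNMAT1 libraries, 2 of 5637 against 2 of UM-UC-3, in which the 2 hairpins stand in for replicates. Of 144 genes listed, 142 were found and 54 had a mean of at least 1 FPKM. At an adjusted p under 0.05 over all genes kept, 28 of the 54 were higher in 5637 and 9 lower, beside 20.1% and 18.4% of 12844 genes. Their median log2 difference was 0.97, against -0.02 over all genes kept. The lists were chosen with earlier results of these data known, so these shares are a description. Some list genes, such as EHF and TLR2, passed the filter only through the 5637 libraries. The p-values measure the spread between 2 different hairpins and not between cultures of one.

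Among the antimicrobial peptides and proteins, 5 of the 44 found were kept, and 1 was higher and 2 lower in 5637. RNASE7, the urothelial ribonuclease, was higher by 4.85 (SE 0.199, limma adjusted p = 0.00018) at 0 and 0 FPKM with the hairpins in UM-UC-3 and 13.3 and 14.5 FPKM in 5637. The mucosal scavenger protein DMBT1 was lower by a log2 difference of -2.11 (SE 0.380, limma adjusted p = 0.0104) and angiogenin (ANG) by one of -1.01 (SE 0.249, limma adjusted p = 0.0273). The 3 inhibitors kept among 17 WFDC and Kunitz inhibitors were all higher in 5637, and of them only WFDC2 shares the fold of SLPI and PI3. WFDC2 was higher by 6.61 and the membrane inhibitors of matriptase and hepsin, SPINT1 and SPINT2, by 5.98 and 5.78 (SE 0.202 to 0.225, limma adjusted p at most 0.00018).

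Of 12 proteases that SLPI and PI3 block, that bind LCN2 or that process these peptides, MMP9 alone was kept. MMP9, the gelatinase that LCN2 binds, was lower in 5637 by a log2 difference of -2.51 (SE 0.222, limma adjusted p = 0.000924). It was also the one list gene, of 40 at 1 FPKM or more in UM-UC-3, that differed at least 2-fold with both hairpins there. There the control held MMP9 at 12.9 FPKM and the hairpin libraries at 2.08 and 2.80 FPKM, differences of -2.38 and -2.03 on the log2 scale. In the library labelled 5637 sh-NC it was 2.67 FPKM, and in the 5637 sh-LNMAT1 libraries 0.0206 and 0 FPKM.

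Of 13 genes of LPS sensing kept among 24, the pathway that CD14 serves, 6 were higher and 2 lower in 5637. Toll-like receptor TLR2 was higher by 3.16 (SE 0.213, limma adjusted p = 0.000407) and the kinase IRAK2 by 2.76 (SE 0.299, limma adjusted p = 0.00186). LY96 (MD-2), which holds LPS on TLR4, was lower by a log2 difference of -3.33 (SE 0.964, limma adjusted p = 0.0440). LY96 was uneven, at 2.13, 21.2 and 2.14 FPKM in UM-UC-3, 11.5 FPKM for the library labelled 5637 sh-NC, and 0.113 and 0.423 FPKM in the 5637 sh-LNMAT1 libraries.

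Of 6 receptors and binding partners kept among 14, 2 were higher in 5637 and 0 lower. The LCN2 receptor SLC22A17 was higher by 2.49 (SE 0.253, limma adjusted p = 0.00151), at 0.372 and 0.233 FPKM in UM-UC-3 and 4.77 and 3.32 FPKM in 5637, and neuroplastin (NPTN), a receptor of S100A8 and S100A9, by 0.97 (SE 0.295, limma adjusted p = 0.0498). PLSCR1, which binds SLPI, differed by -0.73 (SE 0.517) with a limma adjusted p of 0.313, and its 3 values from UM-UC-3, 8.21 to 25.3 FPKM, overlapped those of 5637, 7.88 and 9.32 FPKM with the sh-LNMAT1 hairpins.

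Cytokine receptors and transcription factors known to induce these genes were the longest list kept, with 26 of 31 found, and 16 were higher and 4 lower in 5637. The epithelial factors EHF, KLF5 and GRHL2 were higher by 6.09, 5.06 and 4.97 (SE 0.201 to 0.269, limma adjusted p at most 0.000225). Of the C/EBP and NF-kB factors named above, chosen here after their values were seen, CEBPD was higher by 4.72 (SE 0.356, limma adjusted p = 0.000575), while CEBPB, CEBPG and RELB were lower, by log2 differences of -0.99, -2.25 and -1.54 (SE 0.208 to 0.364, limma adjusted p = 0.0233, 0.00108 and 0.0246). CEBPA, NFKB1 and RELA differed by 0.96, -0.15 and 0.17 (SE 0.298, 0.339 and 0.195) and did not pass, with limma adjusted p of 0.0530, 0.749 and 0.520. NFKBIZ was higher by 0.73 (SE 0.217, limma adjusted p = 0.0473). Of the IL-17 and IL-1 receptors, also chosen after their values were seen, IL17RA, IL17RC, IL17RE and IL1R1 were higher. Their log2 differences were 1.71, 1.09, 2.37 and 1.63 (SE 0.236 to 0.253, limma adjusted p = 0.00441, 0.0232, 0.00167 and 0.00574). IL1RAP was not kept. EHF was 0.0205 and 0.0348 FPKM with the hairpins in UM-UC-3, and 28.5 and 43.8 FPKM in 5637.

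**Figure D5:**
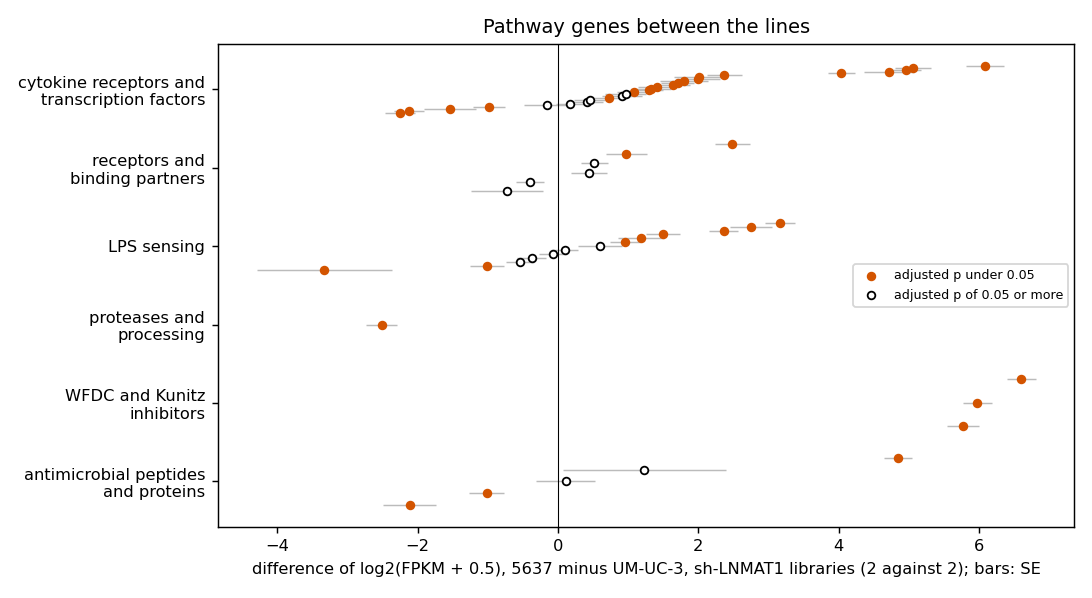
Difference in log2(FPKM + 0.5), 5637 minus UM-UC-3, in the sh-LNMAT1 libraries (2 against 2) for the 54 list genes kept, with bars of 1 SE. Filled points, 28 higher and 9 lower, have a limma adjusted p under 0.05.

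With the lines pooled, sh-LNMAT1 against sh-NC with the cell line as covariate, limma called 0 of the 53 list genes kept, beside 0% of 12717 genes, and the smallest adjusted p was 0.569. At an unadjusted p under 0.05 there were 811 genes, 8 of them on the lists. Without the mean-variance trend limma also called 0. This fit includes the library labelled 5637 sh-NC. Without that library 5637 has no control, so with the line as covariate the fit estimates the hairpin difference from UM-UC-3 alone. It therefore cannot show whether the pooled result holds in 5637.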

How the data were processed

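Total RNA of 6 stable derivatives of UM-UC-3 and 5637 was sequenced from stranded mRNA libraries, per the labels. The values are FPKM per gene, computed and deposited by the authors in 1 table, and the submitters' processing notes name HISAT2 and hg38, with no version. The tool that counted and the strand setting are not given in the sources used here. FPKM are not counts, so no count test was run. Depth was recovered from 14670 single-exon genes of GENCODE 29, where FPKM times length is a whole multiple of 1 fragment. The same unit gave whole fragments, within 0.05, for 98.52% of 21295 values between 1 and 20 fragments in genes of 1 transcript and several exons. Fragments of S100A9, SLPI, PI3, CAMP and DEFB1 follow from this, and those of S100A7 at its all-exon length. For LCN2, S100A8 and CD14 only bounds do, and their ratio intervals are at the fewest fragments. The floors of these 3 genes and of S100A7 are at the shortest transcript. Counting intervals are exact conditional Poisson intervals at 95% and, like the floor of 3 fragments, cover counting error only.

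Each library was mapped to its line and hairpin by its labels, and all 9 genes had the same position in GENCODE 29. Differences are in log2(FPKM + 0.5), with genes kept at 1 FPKM in 1 library of a comparison for folds of 2 and at a mean of 1 FPKM for limma 3.58.1 (R 4.3.3, trend, Benjamini-Hochberg over all genes kept), which was tested on simulated data. The remaining steps used Python 3.11.15 with pandas 2.3.3 and scipy 1.17.1. Named genes are the 9 members, per list the 3 genes with the largest difference between lines with called genes first, list genes at 2-fold with both hairpins in UM-UC-3, the 5 genes most like LCN2 and S100A9, the nearest neighbours and the defining markers. Genes named near S100A9 beyond these were chosen after their values were seen. The members and lists were chosen with earlier results of these data known. Alternatives were other pseudocounts, filters, folds and scaling, 1 hairpin alone, libraries left out, a block by hairpin and no covariate.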

Additional observations from a re-analysis of the deposited data

Results flagged for a closer look

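Among the 9 genes, list genes and neighbours named that reached 1 FPKM in a library of each line, 6 had changes of one sign in both UM-UC-3 hairpin libraries and of the other sign in both of 5637, by sign alone and with no minimum size. None of the 6 is one of the 9 genes. For each, the difference of the mean log2 change, 5637 minus UM-UC-3, was not tested and rests in 5637 on the library labelled 5637 sh-NC. It was -5.52 for LY96, the MD-2 partner of TLR4, whose UM-UC-3 changes were 3.04 with sh-LNMAT1#1 and 0.01, hence next to none, with sh-LNMAT1#2. It was -2.68 for SDC4, the neighbour of SLPI, at 0.99 and 0.85 in UM-UC-3 and -2.14 and -1.37 in 5637. It was -1.49 for the ribonuclease ANG and 1.04 for PTGES2 beside LCN2. It was -1.27 for FAM86B3P, the nearest gene after DEFB1 at 1 FPKM or more, though 1350573 bases away. It was -1.21 for NDUFA2 beside CD14, whose UM-UC-3 changes were only 0.01 and 0.05.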

How the results depend on the processing

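Of 96 recomputed counts, 84 stayed within 1.5 times the reported one, and of 81 recomputed mean differences of single genes 0 reversed and 33 moved by more than the SD between hairpins. In UM-UC-3 the number of the 9 genes counted as higher became 1, PI3, with a pseudocount of 0.1, at 1.5-fold and with sh-LNMAT1#1 alone. In the limma fit between lines, 11 list genes were higher and 4 lower with a mean of at least 5 FPKM, which tests 30 list genes, and 4 were lower with no filter. Leaving out 1 library gave 12 to 30 higher and 2 to 7 lower, the lowest being 12 and 2 without 5637 sh-LNMAT1#1 and 13 and 2 without 5637 sh-LNMAT1#2, fits in which the lone 5637 library is assumed to vary like UM-UC-3. With the hairpin number as a replicate block the counts were 30 and 9. The number marks a shared hairpin and no shared culture. In the pooled fit, leaving out 1 library gave 0 to 25 higher and 0 to 3 lower, the 25 and 3 coming without UM-UC-3 sh-NC, when the library labelled 5637 sh-NC is the only control. With 1 library a group the folds have no replicate check.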
